A study of Homo sapiens and Mus musculus with 27 samples.

Results

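The genes described here are 8 genes of the NADPH oxidase family and its subunits: NOX1, NOX4, NOX5, CYBA, CYBB, NCF1, DUOX1 and DUOX2. They were taken by gene name from count tables of 59453 human or 55367 mouse names. All 8 are listed for human and 7 for mouse, where NOX5 is not listed. The names were chosen by their measured differences in RNA level between the groups of these same libraries, with earlier results known. Their own values are therefore given as a description, without p-values.

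The study measured RNA by bulk sequencing in 27 libraries, in 3 experiments with 3 groups of 3 replicates each. LM2 is a human breast cancer line selected for metastasis to lung, and 4T1 is a mouse mammary carcinoma line. In each line the groups are caMKL1 and MKL1, cells that overexpress the named form, and control, labelled WT. The labels do not spell out the prefix of caMKL1. MKL1, now named MRTFA, is an actin-regulated coactivator of the transcription factor SRF. For caMKL1 the genotype field reads caMKL1, caMKL2 or caMKL3 depending on the replicate in either line, whereas titles and treatments all read caMKL1. In the third experiment LM2 cells were negative, low or high for LifeAct, a peptide that binds actin filaments. The negative group there is labelled as the WT control. The LM2 and 4T1 construct libraries were made from polyA RNA and the LifeAct libraries from RNA depleted of ribosomal RNA. The labels do not give the construct or reporter sequences, name a promoter, or say how the LifeAct groups were separated. Nor do they say whether replicates came from separate cultures, so the p-values below measure only the spread between these samples.

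NADPH oxidases are membrane enzymes that pass electrons from NADPH to oxygen and so make superoxide or hydrogen peroxide. NOX1, CYBB (also called NOX2) and NOX4 work with the small membrane subunit p22phox, encoded by CYBA. NOX1 and CYBB also need cytosolic subunits, an organizer such as NCF1 (p47phox) or NOXO1 and an activator such as NOXA1, with a RAC GTPase. NOX5 and the dual oxidases DUOX1 and DUOX2 are instead switched by calcium through their own calcium-binding domains. NOX5 needs no cytosolic subunit, and rodents lack the gene.

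Promoters were read from RefSeq (GRCh38.p14), 250 bases before and 50 bases after each annotated start, and an entry was found for 8 of 8 members. Windows were searched on both strands for the CArG box, the sequence bound by SRF, for TGANTCA, the AP-1 sequence, and for GGAATG, a sequence bound by TEAD factors. Of 35116 promoter windows of 300 bases, 1.29% held a CArG box, 7.71% held TGANTCA and 14% held GGAATG. The windows shown are those of the members that held a match. The NOX5 window, chr15:69014445-69014744 on the plus strand, held GGAATG on its reverse strand, printed in capitals as CATTCC with its first base 143 bases before the start. It begins at a start inside the span over which NOX5 reads were counted. NOX4 has several entries, of which that at chr11:89492170-89492469 on the minus strand held a CArG box, in capitals, with its first base 88 bases before the start. No other member window held any of the 3 sequences.
NOX5: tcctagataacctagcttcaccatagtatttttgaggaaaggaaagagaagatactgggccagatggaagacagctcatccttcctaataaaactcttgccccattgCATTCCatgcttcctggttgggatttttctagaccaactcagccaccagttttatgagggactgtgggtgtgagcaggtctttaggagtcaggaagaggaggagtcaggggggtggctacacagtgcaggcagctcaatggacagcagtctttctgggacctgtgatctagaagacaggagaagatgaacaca
NOX4: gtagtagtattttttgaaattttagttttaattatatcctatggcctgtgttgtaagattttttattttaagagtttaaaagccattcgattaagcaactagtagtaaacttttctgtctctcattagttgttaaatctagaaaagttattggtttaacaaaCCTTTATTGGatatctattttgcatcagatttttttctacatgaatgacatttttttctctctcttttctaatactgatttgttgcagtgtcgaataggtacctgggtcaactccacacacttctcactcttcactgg
A match is a run of letters in the reference and was not tested for binding or function.

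LM2 libraries held 22147429 to 32147377 counts, 4T1 libraries 21896459 to 29370432 and LifeAct libraries 15581289 to 23678322. The construct gene differed in the labelled direction in every construct library. MRTFA averaged 218 CPM (counts relative to TMM-scaled library size) in LM2 caMKL1 libraries and 162 CPM in MKL1 libraries, against 10.8 CPM in control. Mrtfa averaged 623 CPM in 4T1 caMKL1 libraries and 2142 CPM in MKL1 libraries, against 39.1 CPM in control. The SRF target ACTA2 averaged 2117, 104 and 0.68 CPM in LM2 caMKL1, MKL1 and control libraries. It stood at 2.34, 2.83 and 2.53 CPM in LifeAct negative, low and high libraries. Of the defining epithelial and mesenchymal markers, CDH1 was at or below 0.471 CPM in every LM2 construct group, while vimentin (VIM) averaged at least 1595 CPM. The epithelial markers KRT8, KRT18, KRT19 and EPCAM averaged 173, 138, 35.1 and 13.5 CPM in LM2 control, and the mesenchymal marker CDH2 0.556 CPM. In 4T1 Cdh1 was at least 669 CPM and Vim at least 1506 CPM in every group, while the mesenchymal marker Cdh2 had 0 counts in every group. Some markers of each kind were thus read in both lines. Mitochondrially encoded genes took 7.76%, 13.4% and 13.6% of counts in LM2 caMKL1 replicates 1 to 3, 6.18% to 9.87% in MKL1 libraries and 7.73% to 8.94% in control libraries, and their part in the LM2 results was not tested. Replicate 1 stood apart in 2 LM2 groups. With caMKL1 its mean chi-square over genes was 40.4 to replicate 2 and 43.9 to replicate 3, while that between replicates 2 and 3 was 2.86. With MKL1 the values were 44.5, 30.9 and 18.3 for the same pairs. Results are therefore also given without both of these libraries.

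NOX5 lies on chromosome 15 (GRCh38, 68930525 to 69062762, plus strand). In LM2 cells it was at 0.230, 0.141 and 0.297 CPM in the caMKL1 libraries, at 2.33, 2.60 and 5.17 CPM in the MKL1 libraries and at 2.19, 1.93 and 4.03 CPM in the control libraries. All 3 caMKL1 libraries lay below every other library, and the MKL1 and control ranges overlapped. The caMKL1 values rest on 6, 3 and 6 counts. The third replicate was the highest in each of the 3 groups. NOX5 averaged 0.223 ± 0.079 CPM with caMKL1, 3.37 ± 1.6 CPM with MKL1 and 2.72 ± 1.1 CPM in control (SD, n = 3 each). The fitted log2 ratio of caMKL1 over control was −3.59 ± 0.48 and that over MKL1 was −3.91 ± 0.47 (SE). MKL1 over control gave 0.32 ± 0.32, a ratio about the size of its error that did not reach the threshold. Without replicate 1 of caMKL1 and MKL1 the ratio was −3.61 for caMKL1 over control, −4.16 for caMKL1 over MKL1 and 0.55 for MKL1 over control.

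In the LifeAct experiment NOX5 followed the order of the reporter groups. It was at 89.0, 88.9 and 75.2 CPM in negative libraries, at 26.2, 26.5 and 24.6 CPM in low libraries and at 1.52, 1.30 and 1.10 CPM in high libraries. No ranges overlapped between any pair of groups, and the low libraries fell between the others. The high libraries still held 35, 20 and 20 counts, and the negative libraries 1505, 1378 and 1234. Means were 84.4 ± 7.9 CPM in negative, 25.8 ± 1.1 CPM in low and 1.31 ± 0.21 CPM in high libraries (SD, n = 3 each). The log2 ratio was −5.98 ± 0.11 for high over negative, −1.71 ± 0.07 for low over negative and −4.27 ± 0.13 for high over low (SE). These comparisons share the negative or the high libraries with each other.

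**Figure D1:**
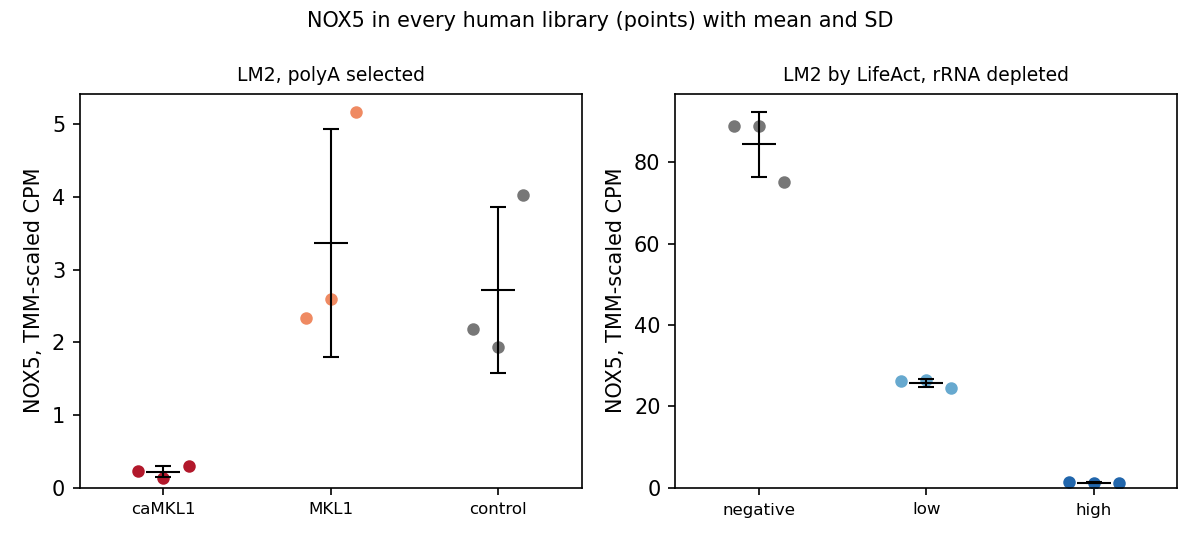
NOX5 in every human library, as TMM-scaled CPM on linear axes of different height, with LM2 construct groups on the left and LifeAct groups on the right. Points are libraries and bars are the mean and SD of 3. The caMKL1 libraries sit between 0.141 and 0.297 CPM, under all MKL1 and control libraries, and the LifeAct groups step down to 1.10 to 1.52 CPM in the high group.

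Per length of exon, NOX5 averaged 0.0178 FPKM (CPM per kilobase of exon) with caMKL1, 0.269 FPKM with MKL1 and 0.217 FPKM in control in LM2, and 6.73, 2.06 and 0.104 FPKM in LifeAct negative, low and high libraries. The untreated groups of the same line thus stood at 0.217 and 6.73 FPKM. They were scaled separately and differ in RNA selection, so this gap cannot be told apart from the library type. In the annotation 8.75% of the exonic bases of NOX5 are shared with AC027088.1 or SPESP1. AC027088.1 had 0 counts in all 18 human libraries and SPESP1 had at most 20. Reads that fall in both genes are left uncounted by the default of the counting tool, so these counts cannot show how many fell there.

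PECAM1, an endothelial marker, moved in the same order as NOX5 in the LifeAct libraries. It averaged 92.3 CPM in negative, 29.9 CPM in low and 7.45 CPM in high libraries. The summed level of the 4 endothelial markers PECAM1, CDH5, KDR and VWF was 96.2 to 99.6 CPM in negative, 35.3 to 37.0 CPM in low and 13.3 to 15.5 CPM in high libraries. VWF had the same order, at 3.35, 2.54 and 2.03 CPM in negative, low and high libraries. The defining endothelial cadherin CDH5 was near 0 in all, at 0.323, 0.173 and 0.142 CPM in the same order, from 16, 10 and 9 counts. KDR went the other way, at 2.37, 3.42 and 4.93 CPM in negative, low and high libraries. In bulk samples fewer cells of a type and less RNA per cell cannot be told apart.

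Over the 9 LM2 construct libraries, the genes most like NOX5 by Pearson correlation of log2(CPM + 0.5) were SLC9A7 (r = 0.999), SYNJ2 (0.995), SH3TC2 (0.994), COA1 (0.994) and B4GALT5 (0.989). They were ranked among 11225 genes averaging at least 5 CPM in a group. Over the 9 LifeAct libraries the same ranking gave FADS2 (r = 0.999), LPIN1 (0.999), SCD (0.999), FAM168A (0.999) and CDS2 (0.999), a list made after the values had been seen. The points are 3 groups of 3 libraries, so such a correlation mostly follows the group means and is only a description.

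The other calcium-switched oxidases, DUOX1 and DUOX2, lie head to head on chromosome 15, with their maturation factors between them. In LM2 cells DUOX1 was at 2.00, 1.97 and 2.13 CPM with caMKL1, at 1.30, 1.04 and 1.02 CPM with MKL1 and at 1.54, 1.52 and 1.81 CPM in control. Its 3 groups did not overlap, with caMKL1 highest and MKL1 lowest, over a narrow span. The log2 ratio was 0.32 ± 0.22 for caMKL1 over control, −0.53 ± 0.23 for MKL1 over control and 0.86 ± 0.22 for caMKL1 over MKL1 (SE). Without replicate 1 of both construct groups these were 0.34, −0.65 and 1.00. On library totals without TMM the last of these was 0.52 and no longer past the threshold, and the first was −0.083.

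DUOX1 also stepped down over the LifeAct groups. It was at 16.4, 19.9 and 18.2 CPM in negative libraries, at 10.2, 9.91 and 10.1 CPM in low libraries and at 4.44, 3.71 and 4.79 CPM in high libraries. The groups did not overlap. High over negative gave a log2 ratio of −2.06 ± 0.11, low over negative −0.85 ± 0.10 and high over low −1.21 ± 0.12 (SE). In the 4T1 line Duox1 was low throughout, at 0.367 to 0.444 CPM with caMKL1, 0.304 to 0.684 CPM with MKL1 and 0.417 to 0.752 CPM in control, and these ranges overlapped.

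DUOX2, the thyroid and gut dual oxidase, was higher with caMKL1 in both lines, at low levels. In LM2 it was at 0.845, 0.610 and 0.793 CPM with caMKL1, at 0, 0 and 0.114 CPM with MKL1 and at 0, 0.114 and 0.151 CPM in control. Those values stand for 22, 13 and 16 counts with caMKL1, 0, 0 and 4 with MKL1 and 0, 3 and 4 in control. In 4T1 Duox2 was at 1.38, 0.737 and 0.856 CPM with caMKL1, at 0.0435, 0.121 and 0.0912 CPM with MKL1 and at 0.0382, 0.0962 and 0.0376 CPM in control. In neither line did a caMKL1 library overlap with the other groups. The log2 ratio of caMKL1 over control was 3.00 ± 0.64 in LM2 and 3.93 ± 0.51 in 4T1 (SE), and at such counts it depends on the prior count added by the fit. Without LM2 replicate 1 of both construct groups the LM2 ratio was 2.90. In LifeAct libraries DUOX2 was at 1.0, 1.55 and 1.65 CPM in negative, 0.382, 0.712 and 0.347 CPM in low and 0.348, 0.130 and 0.330 CPM in high libraries. The negative libraries lay above all others, and the low and high libraries overlapped.

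CYBB, the catalytic subunit of the phagocyte oxidase, was higher with caMKL1 in LM2. It was at 6.64, 6.62 and 8.87 CPM with caMKL1, at 3.27, 4.67 and 3.29 CPM with MKL1 and at 4.42, 3.94 and 3.84 CPM in control. The caMKL1 libraries did not overlap with the others, and the log2 ratio of caMKL1 over control was 0.86 ± 0.19 (SE), and 0.93 without replicate 1 of both construct groups. In LifeAct libraries CYBB was at 0.768, 0.968 and 0.792 CPM in negative, 1.97, 1.96 and 1.21 CPM in low and 1.61, 1.37 and 1.27 CPM in high libraries. Both reporter groups lay above the negative group, with a log2 ratio of 0.76 ± 0.30 for high and 1.00 ± 0.29 for low (SE). The high ratio was past the threshold in the full fit but not with DESeq2 or without high replicate 1, negative replicate 1 or negative replicate 3 (0.64 to 0.77). In 4T1, Cybb had 2, 5 and 0 counts with caMKL1 and 0 in every MKL1 and control library.

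CYBA, the p22phox subunit, was the member with the highest level per length in every group except LM2 caMKL1. In LM2 it was at 3.57, 2.16 and 3.12 CPM with caMKL1, at 9.77, 5.32 and 7.21 CPM with MKL1 and at 7.62, 8.08 and 6.89 CPM in control. All caMKL1 libraries lay below the others, with a log2 ratio of −1.34 ± 0.23 over control (SE), while MKL1 over control was −0.01 ± 0.21. Without replicate 1 of both construct groups these were −1.51 and −0.25. In 4T1 the order was the opposite. Cyba was at 79.8, 87.3 and 84.7 CPM with caMKL1, at 56.2, 64.2 and 59.1 CPM with MKL1 and at 55.7, 53.2 and 52.7 CPM in control. The log2 ratio was 0.64 ± 0.05 for caMKL1 and 0.15 ± 0.05 for MKL1 over control (SE). The MKL1 ratio was no longer past the threshold on library totals (0.087) or without MKL1 replicate 2, control replicate 2 or control replicate 3 (0.10 to 0.14).

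CYBA varied little over the LifeAct groups, at 77.9 ± 6.2 CPM in negative, 88.0 ± 3.2 CPM in low and 86.9 ± 6.7 CPM in high libraries (SD, n = 3 each). The log2 ratios over negative were 0.17 for low and 0.16 for high. The high ratio did not stay past the threshold at a minimum count of 30 or without high replicate 1, high replicate 3 or negative replicate 3. The low ratio did not without low replicate 2 or negative replicate 3.

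NOX1, an oxidase abundant in colon, was at 1.23, 2.44 and 2.78 CPM with caMKL1, at 2.07, 3.46 and 3.32 CPM with MKL1 and at 2.47, 2.16 and 3.13 CPM in control in LM2. These ranges overlapped in every pair of groups, and the log2 ratio of caMKL1 over control was −0.29. It was −0.71 and past the threshold on library totals, and 0.02 without replicate 1 of both construct groups. Over MKL1 the caMKL1 ratio of NOX1 was −0.47 and did not reach the threshold, but did on library totals (−0.82) and without MKL1 replicate 1 (−0.69). LifeAct libraries held 0 to 11 counts of NOX1, below the filter on low counts. In 4T1 Nox1 was at 0.444, 0.295 and 0.367 CPM with caMKL1, at 0.217, 0.644 and 0.319 CPM with MKL1 and at 0.458, 0.770 and 0.677 CPM in control. The caMKL1 libraries lay just under the control range, with a log2 ratio of −0.80 ± 0.40 (SE) that did not reach the threshold. It did on library totals (−0.98) and without control replicate 1 (−0.99). Nox1 passed the filter in 4T1 only with the control libraries, so the direction of its ratio was partly set by the filter. In the mouse annotation 12.1% of Nox1 exonic bases are shared with Cstf2.

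NOX4, a constitutively active oxidase that makes mainly hydrogen peroxide, was nearly absent from the human data. It had 1 count in each LM2 caMKL1 library and 0 counts in the other 15 human libraries. In 4T1 it was the most abundant catalytic member per length in the control group, at 0.900 FPKM. Nox4 was at 2.40, 3.57 and 3.02 CPM with caMKL1, at 6.39, 6.84 and 6.89 CPM with MKL1 and at 6.72, 7.83 and 8.31 CPM in control. The caMKL1 libraries lay below all others, and MKL1 overlapped with control. The log2 ratio was −1.33 ± 0.13 for caMKL1 over control, −0.19 ± 0.12 for MKL1 over control and −1.15 ± 0.14 for caMKL1 over MKL1 (SE).

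NCF1, the p47phox organizer, is a gene with near-identical copies in the human genome, so human reads can be lost or split between copies. It had 1 count in 1 LM2 caMKL1 library and 0 in the other 8 LM2 libraries, and 0 to 6 counts in LifeAct libraries. In 4T1 Ncf1 was at 0.844, 0.921 and 1.30 CPM with caMKL1, at 0.522, 0.201 and 0.319 CPM with MKL1 and at 0.191, 0.128 and 0.15 CPM in control. The 3 groups did not overlap. The log2 ratio was 2.69 ± 0.41 for caMKL1 over control, 1.13 ± 0.51 for MKL1 over control and 1.56 ± 0.37 for caMKL1 over MKL1 (SE). In the mouse annotation 11.1% of Ncf1 exonic bases are shared with Gtf2ird2.

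**Figure D2:**
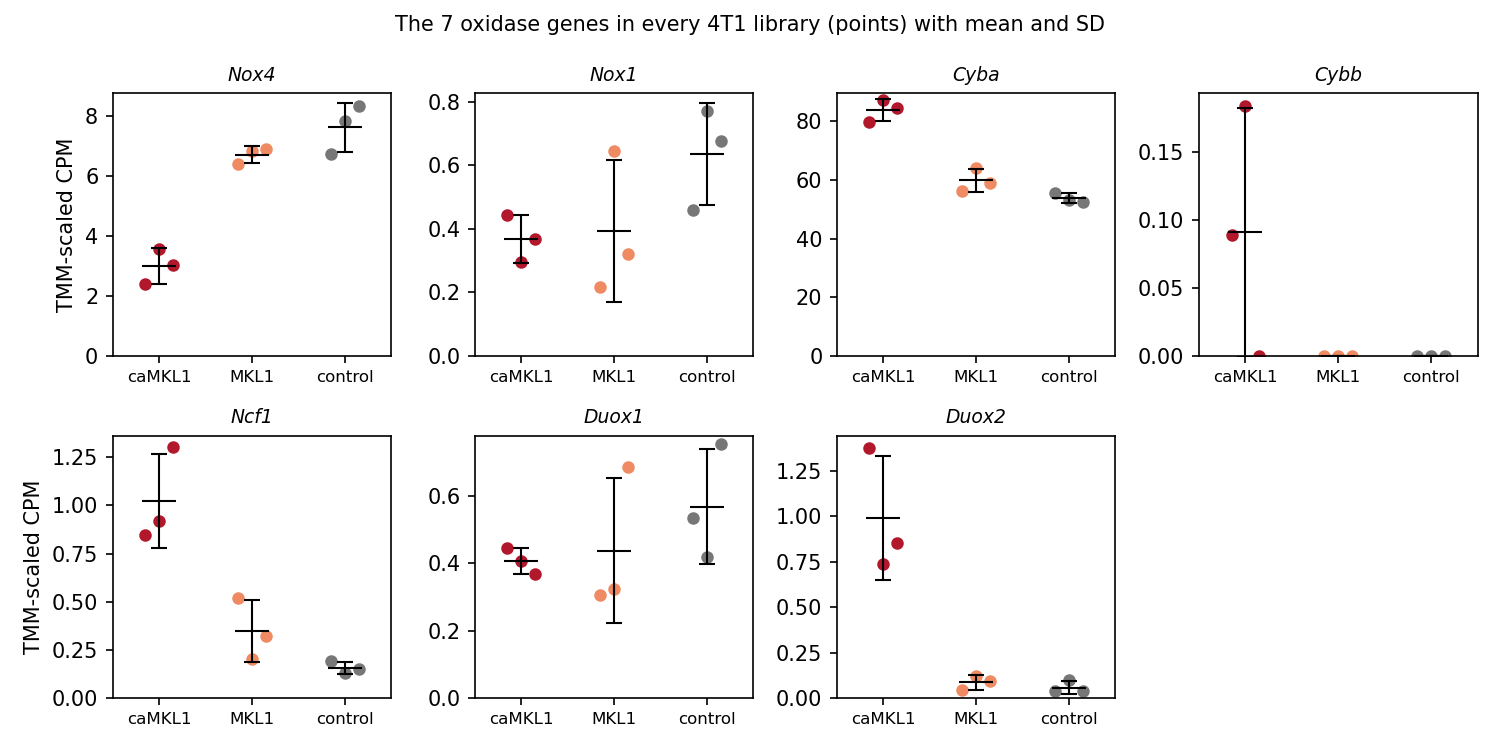
The 7 mouse members in every 4T1 library as TMM-scaled CPM, each panel on its own linear axis starting at 0, with caMKL1, MKL1 and control from left to right. Points are libraries and bars are the mean and SD of 3. Duox2, Ncf1 and Cyba are highest and Nox4 is lowest in the caMKL1 libraries, and Cybb has 2, 5 and 0 counts there and 0 elsewhere.

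Levels can be compared between genes only per length. In LM2 control libraries the order was CYBA at 2.31 FPKM, NOX1 at 1.02 ± 0.19, CYBB at 0.930 ± 0.070, NOX5 at 0.217 ± 0.091, DUOX1 at 0.185 ± 0.018 and DUOX2 at 0.00912 FPKM. NOX1 and CYBB did not differ beyond their SD there, nor did NOX5 and DUOX1. With caMKL1 the order was CYBB at 1.69 FPKM, CYBA at 0.907, NOX1 at 0.845, DUOX1 at 0.232, DUOX2 at 0.0776 and NOX5 at 0.0178 FPKM, and CYBA and NOX1 did not differ beyond their SD. In LifeAct negative libraries CYBA stood at 24.0 FPKM, NOX5 at 6.73, DUOX1 at 2.07, CYBB at 0.193 and DUOX2 at 0.145 FPKM. In LifeAct high libraries CYBA stood at 26.7 FPKM, DUOX1 at 0.491, CYBB at 0.323, NOX1 at 0.186, NOX5 at 0.104, NCF1 at 0.0494 and DUOX2 at 0.0279 FPKM. By mean level NOX5 was thus the fifth of the members in the high group and the second in the negative group. In the high group NOX1 (0.186 ± 0.090 FPKM, from 25 counts) and NOX5 (0.104 ± 0.017 FPKM) did not differ beyond their SD.

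**Figure D3:**
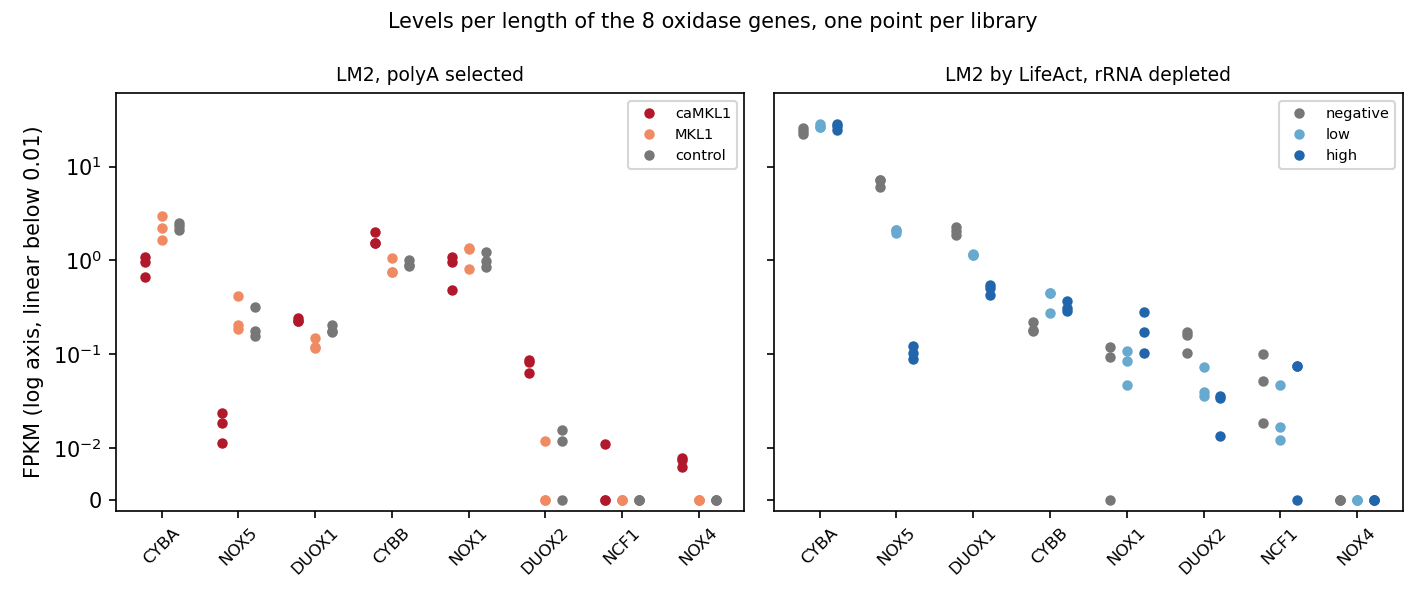
Level per length (FPKM, log axis that is linear below 0.01) of the 8 members in the LM2 construct libraries on the left and the LifeAct libraries on the right, with 1 point for each library. In the LifeAct panel the group means of NOX5 span the widest range, from 6.73 FPKM in negative to 0.104 FPKM in high libraries. In the LM2 panel NOX5 averaged 0.0178 FPKM with caMKL1. The panels differ in RNA selection and were scaled separately, so a gap between them cannot be told apart from the library type. NOX4 lies at or next to 0 throughout.

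With edgeR's quasi-likelihood F test and an adjusted p threshold of 0.05 over all genes, member calls are given only as a description, since these contrasts were in view when the members were chosen. In LM2, 6 of 8 members passed the filter on low counts, in LifeAct 5 of 8 and in 4T1 6 of 7. DUOX2 in LM2 and Duox2 and Ncf1 in 4T1 passed it through the caMKL1 libraries alone. DUOX2 in LifeAct passed it through the negative libraries alone. The direction of these calls was thus partly set by the filter. Nox1 and Duox1 in 4T1, not called in the full fit, passed the filter only with the control libraries, where their averages were highest. The direction of their ratios was partly set in the same way. For LM2 caMKL1 against control, 2 members were called higher (CYBB and DUOX2) and 2 lower (NOX5 and CYBA), where 64.9% of all tested genes were called, 31.9% higher and 33% lower. On library totals without TMM the split of all genes was 21.9% higher and 49.1% lower, and the median log2 ratio of all genes was −0.46, against −0.05 with TMM. For LM2 MKL1 against control 0 of 6 were called by edgeR and 0 by DESeq2, 1 had an unadjusted p under 0.05, and 12% of all genes were called, 7.25% higher and 4.74% lower. For LM2 caMKL1 against MKL1, 3 were called higher (CYBB, DUOX1 and DUOX2) and 2 lower, where 64.5% of all genes were called, 32.6% higher and 31.9% lower. For 4T1 caMKL1 against control, 3 were called higher (Cyba, Duox2 and Ncf1) and 1 lower (Nox4), where 72% of all genes were called, 36.2% higher and 35.8% lower. On library totals that split was 27.8% higher and 46.5% lower, with a median of −0.21 over all genes, against −0.02 with TMM. The same 4 members were called for 4T1 caMKL1 against MKL1, where 66.6% of all genes were called, 33.8% higher and 32.8% lower. For 4T1 MKL1 against control 1 of 6 was called (Cyba, higher), where 34.3% of all genes were called, 19.3% higher and 15% lower, and 0 members were called without MKL1 replicate 2, control replicate 2 or control replicate 3.

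For LifeAct high against negative all 5 members that passed the filter were called, 2 higher (CYBA and CYBB) and 3 lower (NOX5, DUOX1 and DUOX2), where 71.1% of all genes were called, 36% higher and 35.2% lower. Without high replicate 1 or negative replicate 3 the count was 3. For LifeAct low against negative the same 5 were called, where 49.6% of all genes were called, 26% higher and 23.6% lower. For LifeAct high against low 2 were called lower (NOX5 and DUOX1), where 50.3% of all genes were called, 26.6% higher and 23.7% lower. The median log2 ratio of the members that passed the filter was 0.02 in LM2 caMKL1, 0.09 in 4T1 caMKL1 and −2.06 in LifeAct high. Each is over its control or negative group, and the medians over all tested genes were −0.05, −0.02 and −0.03. The LifeAct median is the ratio of DUOX1, with 2 of the 5 members called higher and 3 lower. These medians are only a description, since the members were chosen with these differences known.

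**Figure D4:**
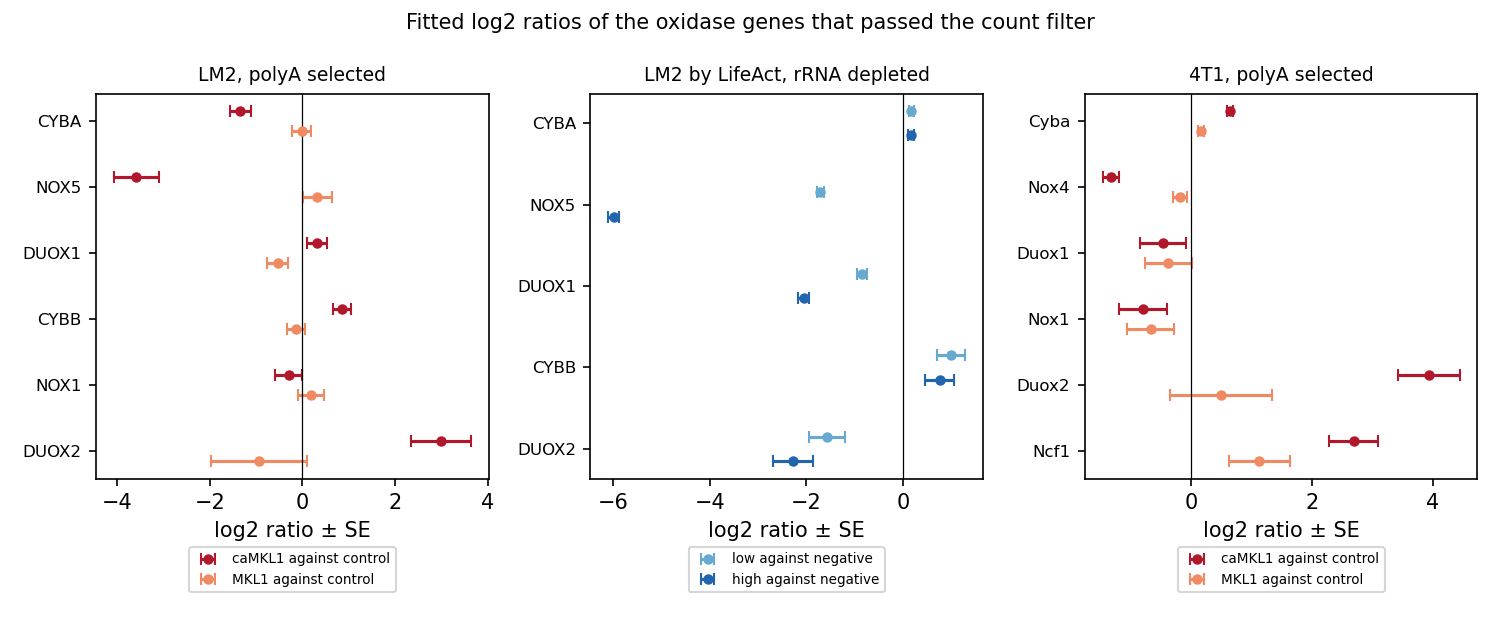
Fitted log2 ratios with SE of the members that passed the count filter, for both construct groups over control in LM2 and 4T1 and for both reporter groups over negative in LifeAct. Points right of the line at 0 are higher than control or negative. NOX5 lies far to the left for LM2 caMKL1 (−3.59) and LifeAct high (−5.98), and CYBA lies left of 0 in LM2 and right of 0 in 4T1 with caMKL1.

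The genes whose pattern was most like the other widely ranging members were listed in the same way. Over the LM2 construct libraries DUOX2 was nearest to BMT2 (r = 0.992), FAM149A (0.991), TRIM22 (0.989), BTBD19 (0.989) and TMCC3 (0.988). CYBA was nearest to UBE2E3 (0.990), SS18L1 (0.988), INPP5E (0.988), VSIG10 (0.985) and HDAC3 (0.985). Over the 4T1 libraries Nox4 was nearest to Snw1 (0.994), Polr3e (0.992), Casp4 (0.992), Kcnh7 (0.987) and S100a13 (0.986). Duox2 was nearest to Foxa1 (0.992), and Ncf1 to Armc8 (0.986) and Dis3l2 (0.984).

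The oxidase partner genes were not members and were tested with edgeR's quasi-likelihood F test. They were also listed with earlier results of these data known, so their p-values are no independent support. Of 9 partners, 5 passed the filter in LM2, where caMKL1 against control called 1 higher and 3 lower. Over all tested genes 64.9% were called there, 31.9% higher and 33% lower. DUOXA1 passed the filter through the caMKL1 libraries alone, so the direction of its call was partly set by the filter. DUOXA1, the maturation factor of DUOX1, averaged 2.85 ± 0.83 CPM with caMKL1, 0.0778 ± 0.041 CPM with MKL1 and 0.140 ± 0.094 CPM in control (SD, n = 3 each; log2 ratio over control 4.28 ± 0.42, edgeR adjusted p = 2.3e-07). DUOXA2, the DUOX2 maturation factor, shares 706 exonic bases with DUOXA1 on the opposite strand and had 4, 7 and 4 counts with caMKL1, 0 in each MKL1 library and 0, 3 and 0 in control. With no strand option in the counting, reads of overlapping genes cannot be assigned with certainty. RAC2, the blood-cell RAC GTPase, fell to 19.6 ± 1.7 CPM with caMKL1, against 47.1 ± 4.8 CPM in control (log2 ratio −1.26, edgeR adjusted p = 1.2e-07). NOXA1, the NOX1 activator, fell to 0.348 ± 0.23 CPM with caMKL1, against 1.31 ± 0.23 CPM in control (log2 ratio −1.92, edgeR adjusted p = 4.8e-04). CYBC1, a chaperone for the CYBB and CYBA pair, fell to 5.68 ± 1.1 CPM with caMKL1, against 10.5 ± 0.93 CPM in control (log2 ratio −0.89, edgeR adjusted p = 2.2e-04). RAC1 averaged 490 CPM with caMKL1 and 454 CPM in control (log2 ratio 0.11, edgeR adjusted p = 0.31), and RAC1 was called in opposite directions by other fits, lower on library totals (−0.30, edgeR adjusted p = 0.0030) and higher without replicate 1 of both construct groups (0.19, edgeR adjusted p = 0.015). Without replicate 1 of both construct groups the ratio of caMKL1 over control was 4.42 for DUOXA1, −1.83 for NOXA1 and −1.01 for CYBC1.

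For LM2 MKL1 against control, where 12% of all genes were called, 0 of the 5 partners were called by edgeR and 0 by DESeq2, while 2 had an unadjusted p under 0.05. CYBC1 was called lower there without replicate 1 of both construct groups (log2 ratio −0.43, edgeR adjusted p = 0.044). NOX3 and NCF4 had at most 1 count in any LM2 library, and NOXO1 had 0. Human NOXO1 shares 98.8% of its exonic bases with TBL3, and reads that fall in both genes are left uncounted by the default of the counting tool.

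In LifeAct libraries 4 of 5 tested partners fell and 1 rose for high against negative, where 71.1% of all genes were called, 36% higher and 35.2% lower. NOXA1 was at 36.7, 35.8 and 30.5 CPM in negative, 18.8, 18.3 and 14.7 CPM in low and 5.53, 5.80 and 7.21 CPM in high libraries. The groups did not overlap, with a log2 ratio of −2.48 ± 0.11 for high over negative (edgeR adjusted p = 9.2e-18) and −1.0 ± 0.09 for low over negative (edgeR adjusted p = 5.7e-10). DUOXA1 fell to 0.357 ± 0.14 CPM in high libraries, against 1.33 ± 0.37 CPM in negative libraries (log2 ratio −1.83, edgeR adjusted p = 1.7e-04). It passed the filter only through the negative libraries, so the direction of this call was partly set by the filter. CYBC1 fell to 27.8 CPM in high libraries, against 41.5 CPM in negative libraries (log2 ratio −0.57, edgeR adjusted p = 9.7e-08). RAC1 was at 335 CPM in high and 296 CPM in negative libraries (log2 ratio 0.18, edgeR adjusted p = 1.3e-04), and RAC2 at 155 CPM in high and 177 CPM in negative libraries (log2 ratio −0.19, edgeR adjusted p = 4.6e-04). NOX3, NOXO1, NCF4 and DUOXA2 did not pass the filter.

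In 4T1, of 4 tested partners, 2 rose and 1 fell with caMKL1 against control, where 72% of all genes were called, 36.2% higher and 35.8% lower. Ncf4, which encodes p40phox, was at 19.9, 18.2 and 18.9 CPM with caMKL1, at 1.17, 0.563 and 0.958 CPM with MKL1 and at 0.878, 1.22 and 0.978 CPM in control. Its caMKL1 libraries lay apart from the others, while MKL1 and control overlapped. The log2 ratio of caMKL1 over control was 4.19 ± 0.14 for Ncf4 (edgeR adjusted p = 3.1e-18). Noxo1 averaged 2.76 CPM with caMKL1 and 0.542 CPM in control (log2 ratio 2.32, edgeR adjusted p = 3.4e-09), but 70.4% of its exonic bases are shared with Tbl3. Rac1 fell to 286 CPM with caMKL1, against 365 CPM in control (log2 ratio −0.35, edgeR adjusted p = 1.3e-10), while Cybc1 stood at 30.1 CPM with caMKL1 and 31.9 CPM in control (log2 ratio −0.08, edgeR adjusted p = 0.27) and was called lower on library totals (−0.26, edgeR adjusted p = 0.0012). Nox3, Noxa1, Rac2, Duoxa1 and Duoxa2 did not pass the filter.

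**Figure D5:**
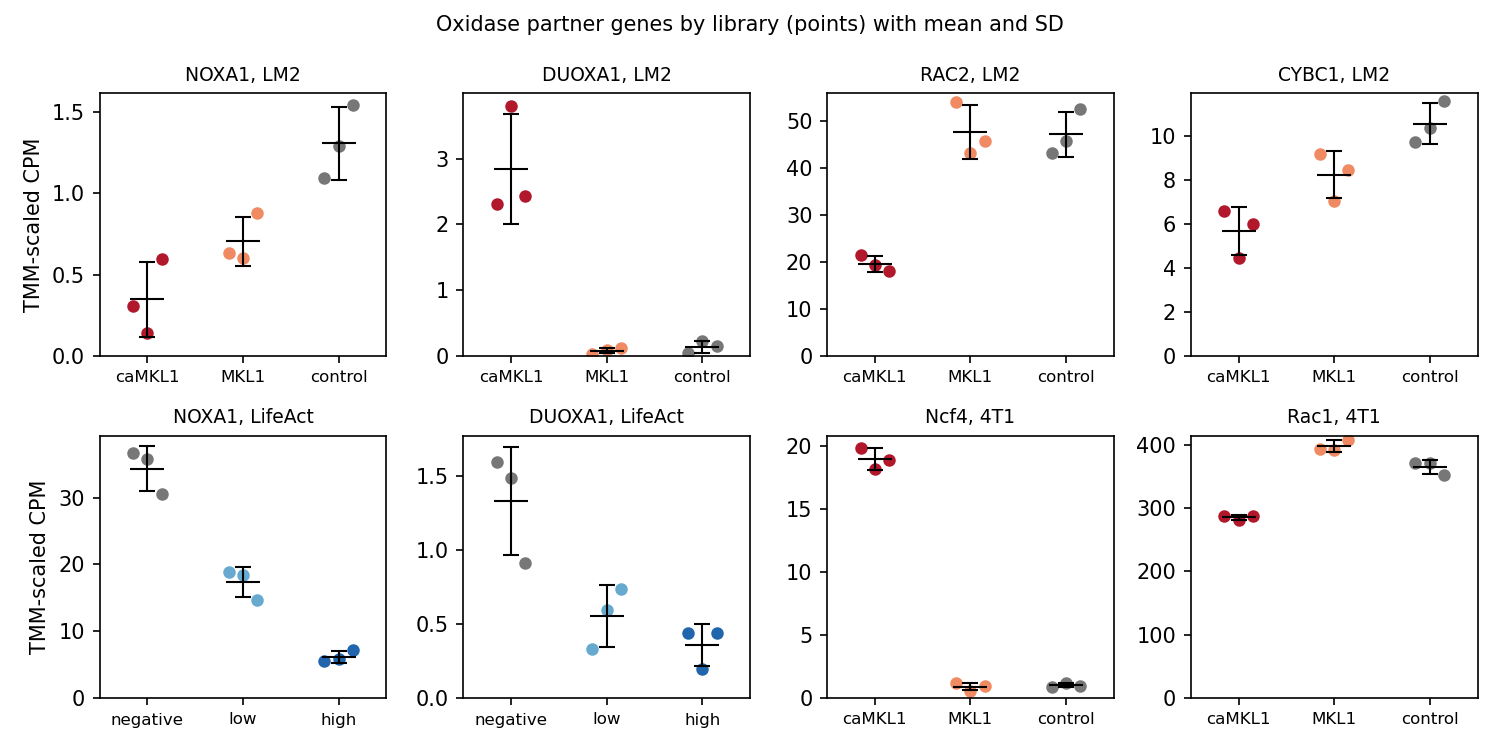
Partner genes by library as TMM-scaled CPM, each panel on its own linear axis starting at 0, with points for libraries and bars for the mean and SD of 3. DUOXA1 in LM2 and Ncf4 in 4T1 are highest with caMKL1. RAC2 in LM2 and Rac1 in 4T1 are lowest with caMKL1, and NOXA1 is lowest with caMKL1 in LM2 and in the high group of LifeAct.

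Because these subunits are known from phagocytes, 9 phagocyte markers were summed in the same libraries. In 4T1 the sum was 59.5 to 67.8 CPM with caMKL1, 26.4 to 29.6 CPM with MKL1 and 14.6 to 15 CPM in control. Of the 9 markers, 2 (Cd68 and Cd14) averaged at least 1 CPM in every 4T1 group. Most of the sum was Cd68, at 60.6 CPM with caMKL1, 21.0 CPM with MKL1 and 6.24 CPM in control. Cd14 had the other order, at 2.71 CPM with caMKL1, 6.39 CPM with MKL1 and 6.94 CPM in control, and Aif1 was at 0.666 CPM with caMKL1, 0.570 CPM with MKL1 and 1.22 CPM in control. The defining markers were at or near 0, with Tyrobp at 0 counts in all 4T1 libraries, Itgam at 0 counts with caMKL1 and MKL1 and 1 in control, and Ptprc at 1 count with caMKL1, 5 with MKL1 and 2 in control. In LM2 the sum was 2.78 to 5.61 CPM with caMKL1, 1.43 to 3.49 CPM with MKL1 and 1.30 to 1.96 CPM in control, with TYROBP at 0 counts. In LifeAct it was 13.9 to 16 CPM in negative, 10.8 to 11.1 CPM in low and 7.23 to 9.30 CPM in high libraries. CSF1R, CD14 and PTPRC fell from 7.41, 4.59 and 2.39 CPM in negative to 3.31, 1.83 and 0.493 CPM in high libraries. ITGAM went the other way, at 0.105, 0.197 and 1.57 CPM in negative, low and high libraries, from 5, 12 and 92 counts. The other markers averaged at most 0.350 CPM in every LifeAct group.

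The wider pathway was read through 3 further lists, of oxidase regulators, of enzymes that remove superoxide and peroxide, and of the NRF2 response with NADPH supply. These lists too were made with earlier results known, and the genes named are among those with the largest ratios. Their p-values are therefore no independent support. For LM2 caMKL1 against control, where 64.9% of all genes were called, 2 regulators were higher and 7 lower of 9 (median log2 ratio −0.43). On library totals 1 was higher. SH3PXD2A, which encodes the podosome organizer TKS5, rose to 221 CPM with caMKL1, against 88.2 CPM in control (log2 ratio 1.33, edgeR adjusted p = 1.9e-08). Its relative SH3PXD2B fell (log2 ratio −1.43, edgeR adjusted p = 1.4e-06), as did calmodulin gene CALM3 (−1.77, edgeR adjusted p = 2.5e-11) and protein kinase C alpha gene PRKCA (−1.0, edgeR adjusted p = 7.9e-08). Of 19 removal enzymes tested, 7 rose, 6 fell and 6 did not pass, and 12 fell on library totals and 10 without replicate 1 of both construct groups. The extracellular superoxide dismutase SOD3 rose to 5.11 CPM with caMKL1, against 0.36 CPM in control (log2 ratio 3.80, edgeR adjusted p = 6.8e-09). The glutathione peroxidase GPX3 (2.42, edgeR adjusted p = 7.8e-11) and the thioredoxin reductase TXNRD1 (1.94, edgeR adjusted p = 3.9e-11) also rose. GPX8 (−1.60, edgeR adjusted p = 1.2e-10) and the peroxiredoxin PRDX1 (−1.39, edgeR adjusted p = 7.5e-07) fell.

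Of 13 tested NRF2 and NADPH genes, 4 rose and 5 fell for LM2 caMKL1 against control, and 9 fell on library totals. The quinone reductase NQO1 rose to 328 CPM with caMKL1, against 98.8 CPM in control (log2 ratio 1.73, edgeR adjusted p = 1.1e-09), and PGD, which makes NADPH in the pentose phosphate pathway, rose by 1.35 on the log2 scale (edgeR adjusted p = 1.5e-09). IDH1, another NADPH source, had a log2 ratio of −1.35 (edgeR adjusted p = 2.2e-08). For LM2 MKL1 against control, where 12% of all genes were called, 1 of 9 regulators rose and 1 fell, 7 of 19 removal enzymes rose and 0 fell, and 3 of 13 NRF2 and NADPH genes rose and 1 fell. Without MKL1 replicate 1, caMKL1 replicate 2 or 3, or any 1 control library, 0 regulators rose and 0 NRF2 and NADPH genes fell. The number of regulators that fell was 2 with DESeq2, at a minimum count of 30, without MKL1 replicate 1, without caMKL1 replicate 1 and without both, and 3 on library totals. Without control replicate 2 or 3, 4 or 2 removal enzymes rose. GPX3 (0.90, edgeR adjusted p = 9.4e-05) and NQO1 (0.85, edgeR adjusted p = 7e-05) were among those that rose with MKL1, and the kinase gene PRKCD fell (−0.75, edgeR adjusted p = 2.1e-04).

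For 4T1 caMKL1 against control, where 72% of all genes were called, 5 of 9 regulators rose and 4 fell, 5 of 17 removal enzymes rose and 11 fell, and 6 of 14 NRF2 and NADPH genes rose and 5 fell. On library totals 2 regulators rose and 8 NRF2 and NADPH genes fell. Sh3pxd2a rose to 662 CPM with caMKL1, against 252 CPM in control (log2 ratio 1.39, edgeR adjusted p = 6.3e-23), and Prkca fell (−0.97, edgeR adjusted p = 1.6e-15). The peroxide-removing enzymes Gpx1 (1.37, edgeR adjusted p = 1.8e-20) and catalase, Cat (1.04, edgeR adjusted p = 1.5e-18), rose, while Txnrd2 (−1.08, edgeR adjusted p = 1.9e-12) and Prdx5 (−0.89, edgeR adjusted p = 5.3e-16) fell. Nqo1 (2.16, edgeR adjusted p = 4.1e-17) and the haem oxygenase Hmox1 (1.43, edgeR adjusted p = 1e-14) rose, and Osgin1 fell (−1.50, edgeR adjusted p = 1.9e-14). With MKL1 in 4T1, where 34.3% of all genes were called, 3 of 9 regulators rose and 3 fell, 6 of 17 removal enzymes rose and 2 fell, and 4 of 14 NRF2 and NADPH genes rose and 5 fell. On library totals 6 removal enzymes fell. Nqo1 (0.71, edgeR adjusted p = 1.6e-06) and Gpx1 (0.55, edgeR adjusted p = 1.4e-11) were among those that rose, and the cystine transporter Slc7a11 fell (−0.70, edgeR adjusted p = 7.5e-10).

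For LifeAct high against negative, where 71.1% of all genes were called, 5 of 9 regulators rose and 4 fell, 14 of 19 removal enzymes rose and 4 fell, and 9 of 14 NRF2 and NADPH genes rose and 4 fell. The NRF2 targets OSGIN1 (log2 ratio 2.42, edgeR adjusted p = 7.3e-20), HMOX1 (1.5, edgeR adjusted p = 1.8e-15) and GCLM (1.23, edgeR adjusted p = 1.6e-16) rose most in their list. The mitochondrial superoxide dismutase SOD2 rose to 422 CPM in high libraries, against 245 CPM in negative libraries (0.79, edgeR adjusted p = 1e-16). Catalase, CAT (−0.69, edgeR adjusted p = 2.1e-12), the pentose phosphate enzyme TKT (−0.69, edgeR adjusted p = 1.2e-13) and the regulators SH3PXD2B (−1.37, edgeR adjusted p = 7.9e-18) and SH3PXD2A (−1.04, edgeR adjusted p = 5.8e-19) fell. For LifeAct low against negative, where 49.6% of all genes were called, 10 of 19 removal enzymes rose and 2 fell, and 7 of 14 NRF2 and NADPH genes rose and 2 fell. The fall was seen for 1 removal enzyme in place of 2 on library totals, without a filter and without 1 library in 6 cases (any low library, negative replicate 1 or 2, or high replicate 3). The median log2 ratio of the removal enzymes was 0.35 in high and 0.17 in low libraries, over negative, beside −0.03 and −0.01 over all tested genes.

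The difference of the responses to caMKL1 between 4T1 and LM2 was tested for partner and list genes as an interaction over 18 libraries and 13113 genes matched by symbol, of which 60.3% were called. It was called for 2 of 7 partners, CYBC1, whose log2 ratio was larger by 0.68 in 4T1, and RAC1, whose log2 ratio differed by −0.59 in 4T1 relative to LM2. NOXO1, RAC2, DUOXA1, NCF4 and NOXA1 had counts near 0 in at least 1 line. Their SE was 3071, 17.0, 3.32, 2.62 and 1.73, so the test could not decide whether their responses differ. NCF4 had a difference of 6.08 (edgeR adjusted p = 0.055). The 18 libraries were scaled together, so these differences need not equal those between the ratios given above. For MKL1, where 19.9% of genes were called, 0 of 7 partners were called by edgeR and 0 had an unadjusted p under 0.05. The partners with counts near 0 could not be decided there either, with an SE from 0.904 (RAC2) to 284 (NOXO1).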

How the data were processed

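For each of 27 libraries the authors deposited raw counts, in read pairs, under gene names, and their tables also give an exonic length per gene. Per the file headers the authors counted by featureCounts v2.0.1 from reads aligned by STAR, by exon and gene name, against Ensembl release 103 (GRCh38) or 102 (GRCm38), with no strand option and no option for multi-mapped reads. Which STAR version was run is not stated in those headers. The submitters' processing notes also name DESeq2, hg38 and mm10. TRIzol extraction and paired reads of 150 bp from a HiSeq instrument are given per the labels' protocols.

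Groups were taken from titles and treatment labels. The members and all lists were chosen with earlier results of these data known, so member values carry no p-values. Every member and the partner genes are named. Of each other list, up to 3 genes called higher and 3 called lower per comparison, by size of the log2 ratio, could be named. Genes most alike were the 5 highest by correlation, for the 3 members per line with the widest range.

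Each experiment of 9 libraries was fitted with edgeR 4.0.16 in R 4.3.3 (quasi-likelihood F test, a mean per group, TMM, filterByExpr with minimum count 10, prior count 0.125), with Benjamini-Hochberg adjustment at 0.05 over the 18893 LM2, 16297 4T1 or 21869 LifeAct genes tested. SE is the log2 ratio divided by the root of F. FPKM is CPM per kilobase of deposited length. On simulated counts the fit recovered 97% of genes changed 2-fold and 100% of those changed 4-fold for LM2 caMKL1 against control, of 18515 genes. It also called 11 unchanged genes. Changes were put only into genes above a floor on the mean count. All genes had the same simulated dispersion, and no replicate stood apart. The recovery therefore does not cover genes with low counts or the LM2 replicates that stood apart. The mean chi-square over genes was 1.39 to 44.5 among 27 pairs of replicates, and none was counted as 1 sample. Between species, genes were matched by symbol ignoring case, so the list gene TXN has no mouse row. Some genes of the lists are not reported here. Alternatives were DESeq2 1.42.0 and its size factors, library totals, no filter, a minimum count of 30, the replicate number as a block, leaving out each library, and leaving out LM2 replicate 1 of MKL1 and caMKL1 together. The values of sharing exons come from the deposited exon coordinates, on GRCh38 and GRCm38.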

Additional observations from a re-analysis of the deposited data

Results flagged for a closer look

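CYBA and DUOX1 had ratios of opposite sign with caMKL1 in the 2 lines, with every caMKL1 library on 1 side of the mean of its control group in each line. For CYBA the log2 ratio over control was 0.64 in 4T1 and −1.34 in LM2, and for DUOX1 it was −0.47 in 4T1 and 0.32 in LM2. The DUOX1 ratios did not pass the threshold in either line, and on library totals the LM2 ratio of DUOX1 was −0.083, the same sign as in 4T1 (−0.65). In 4T1 Duox1 passed the filter only with the control libraries, so the direction of its ratio there was partly set by the filter. CYBA kept opposite signs on library totals (0.46 in 4T1 and −1.74 in LM2), and neither difference was tested, since these genes were chosen with the values known.

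The response of a partner or list gene to caMKL1 is given where the lines differed by the interaction test (edgeR, adjusted p under 0.05) and either the gene is an oxidase partner or it was called in opposite directions. The difference is the log2 ratio in 4T1 minus that in LM2 within the joint fit of both lines. That fit scaled the libraries of both lines together, so it need not equal the difference between the ratios of the separate fits. Among partners it was 0.68 for CYBC1 and −0.59 for RAC1. On library totals RAC1 was called lower in LM2 (−0.30) and Cybc1 lower in 4T1 (−0.26), the direction each had in the other line. Among regulators the difference was 1.81 for SH3PXD2B, 0.51 for HSP90AA1, 0.41 for POLDIP2, 0.36 for CALM2 and −0.63 for P4HB. On library totals the lines no longer had opposite signs for P4HB (−0.11 in LM2) or POLDIP2 (−0.041 in 4T1), and in 4T1 HSP90AA1 (0.029) and CALM2 (0.057) were not called. Among removal enzymes it was 0.48 for GPX4 (not called in 4T1 on library totals), −1.58 for PRDX6, −2.52 for TXNRD1 and −3.17 for GPX3. Among NRF2 and NADPH genes it was 1.80 for IDH1, 1.15 for ME1 and −0.89 for NFE2L2. For MKL1 the difference was −0.54 for GCLM, which was not called in LM2 on library totals (0.27).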

How the results depend on the processing

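No called member ratio changed sign under any alternative. Of 760 member ratios under alternatives, 15 called ones did not pass the threshold and 5 uncalled ones did, as given beside CYBA, CYBB, DUOX1 and NOX1 and their mouse forms. NOX5 kept log2 ratios of −3.98 to −3.19 for LM2 caMKL1 over control and −6.13 to −5.87 for LifeAct high over negative. The number of members called was within 1.5 times of the full fit in the other alternatives, except as follows. With a minimum count of 30, which tests fewer genes, it was 2 for 4T1 caMKL1 against control and against MKL1, 2 for LifeAct high against negative and 3 for LifeAct low against negative. On library totals it was 0 for 4T1 MKL1 against control. Leaving out each library gave 0 to 1 there and 3 to 5 for LifeAct high against negative.

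Library totals reversed 11 ratios of partner and list genes, as that scaling shifts the median of all genes down in caMKL1 libraries. In LM2 caMKL1 against control these were GCLC (−0.41), P4HB (−0.11), RAC1 (−0.30), SLC7A11 (−0.23) and TXN (−0.020). In LM2 caMKL1 against MKL1 they were GCLC (−0.23), RAC1 (−0.28) and SLC7A11 (−0.34). In 4T1 they were Gclm (−0.12) and Poldip2 (−0.041) against control and Pgd (−0.093) against MKL1. The median log2 ratio of all genes became −0.38 for LM2 caMKL1 against MKL1 (−0.04 with TMM) and −0.13 for 4T1 caMKL1 against MKL1 (−0.01 with TMM). The split of calls over all genes became 23.4% higher and 45.7% lower for LM2 caMKL1 against MKL1, 27.8% and 41.1% for 4T1 caMKL1 against MKL1, 4.86% and 6.57% for LM2 MKL1 against control, 14.3% and 23.7% for 4T1 MKL1 against control and 21.3% and 29.4% for LifeAct high against low. Of 1104 list counts under alternatives, 55 moved by over 1.5 times, 11 of them on library totals. NOXA1 in LM2 caMKL1 against MKL1 (log2 ratio −1.05) lost its call with DESeq2, without MKL1 replicate 3, caMKL1 replicate 1 or caMKL1 replicate 2, and without replicate 1 of both construct groups, CYBC1 there without caMKL1 replicate 2, and RAC2 in LifeAct high against low with DESeq2 and in 5 fits without 1 library.

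Same-numbered replicates correlated in their deviations at −0.0366 to 0.297 over 27 pairs. Replicate 3 correlated positively between all 4T1 groups (up to 0.216), as did replicates 1 (0.297) and 2 (0.187) of LM2 caMKL1 and MKL1. But 0 of 9 group pairs had every correlation over 0.1, and in 1 of 9 (4T1 caMKL1 and MKL1) every sample correlated best with its own number, so the numbers were not taken to pair the samples. With the replicate number as a block the members called were 4 for LM2 caMKL1 against control, 0 for LM2 MKL1 against control, 5 for LM2 caMKL1 against MKL1, 4, 1 and 4 for the same 4T1 comparisons, and 5, 5 and 2 for LifeAct high against negative, low against negative and high against low, the same as without it. The difference between 4T1 and LM2 was called for 31 of 48 list and partner genes with caMKL1, or 64.6%, where 60.3% of all genes were called (31 to 34 under alternatives chosen after seeing the data), and for 15 of 48 with MKL1, or 31.2%, where 19.9% were (10 to 15). In LM2 NOX4 and NCF1, in LifeAct NOX1, NOX4 and NCF1 and in 4T1 Cybb held too few counts to pass the filter, so no difference was detectable at this depth.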
